A study of Drosophila melanogaster with 4 samples.

Results

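The regions described here are the places on chromosome arm 3L of Drosophila melanogaster where NURF301 was enriched by chromatin immunoprecipitation. They were taken as every row on 3L in the 3 deposited lists of enriched regions, 1062 of the 5576 regions of ChIP replicate 1, 1203 of the 6320 of ChIP replicate 2 and 1540 of the 8224 of the combined list for the replicate set. The main set was made of combined-list rows that met both replicate lists, with at least 1 shared bp in each case, and held 985 on 3L of 5069 on all sequences.

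NURF301 is the largest subunit of the nucleosome remodelling factor NURF, in which the ATPase ISWI slides nucleosomes along DNA without removing them. The subunit is known to contact sequence-specific transcription factors and to carry domains that bind modified histone tails, and in flies it is encoded by the gene E(bx). The lists describe whole embryos, with no separation of tissues. On 3L, coordinates run from the distal end, at the telomere, to the proximal end, near the centromere, where euchromatin passes into repeat-rich heterochromatin.

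The chromatin came from embryos of the wild-type strain Oregon-R at 14 to 16 h of development, when organs are differentiating, and was fixed with 1.8% formaldehyde. The antibody was Q2602, which targets NURF301, and was left on the chromatin for 15 h. The 4 samples were 2 ChIP libraries and 2 inputs, the inputs being chromatin without immunoprecipitation, and the labels assign an input to each ChIP replicate. There is 1 genotype, 1 age and 1 antibody, and nothing says that the replicates came from separate embryo collections, so differences between replicates may be technical only.

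Depth is visible only inside the regions. The score in the lists was read as the log2 ratio of ChIP to input read counts after a scaling of each list, and the counts behind it were recovered approximately. On 3L the median region held 424.5 ChIP and 228 input counts in replicate 1, 531 and 292 in replicate 2, and 851 and 515 in the combined list. The median counting error per region was 0.12 log2 units for replicate 1, 0.11 for replicate 2 and 0.081 for the combined list. A position is given on FlyBase release 5, the build in the file headers, counted from 1. Genes at the regions were not analysed here.

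NURF301 regions took up a modest share of the arm and were mostly short. Replicate 1 covered 10.1% of the 24.5 Mb of 3L and replicate 2 covered 12.3%, a mean of 11.2% ± 1.51 (SD, n = 2), and the main set covered 11.6%. Main-set regions had a median width of 2565 bp, with the middle 50% between 2229 and 3195 bp and extremes of 1563 and 9891 bp. Their median score was 0.70, which is 1.62 times the input after scaling, with the middle 50% between 0.53 and 0.89 and extremes of 0.22 and 1.73. Median scores of the replicate lists were 0.68 in replicate 1 and 0.71 in replicate 2. Wide regions tended to score higher: Spearman's rho between width and score was 0.50 and Pearson's r was 0.29 over the 985 main-set regions, values from the same reads that describe these lists and carry no p.

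The 2 replicates placed NURF301 at largely the same sites on 3L. Of the replicate 1 regions, 1018 (95.9%, 95% Wilson interval 94.5% to 96.9%) overlapped a region of replicate 2, where the share over all sequences was 94.1%. Of the replicate 2 regions, 995 (82.7%, Wilson interval 80.5% to 84.7%) overlapped a region of replicate 1, where the share over all sequences was 81.2%. These intervals cover counting error only, and the 3L shares lie near those of the whole lists. Agreement depended on strength. In replicate 1, 266 of the 266 regions of the highest score quartile were shared, against 239 of 266 (89.8%) in the lowest. In replicate 2, 299 of 301 (99.3%) were shared in the highest quartile, against 150 of 301 (49.8%) in the lowest.

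Scores were ordered alike in both replicates. Over 990 best-matching pairs on 3L, Spearman's rho was 0.82 and Pearson's r was 0.85, and the widths had a rho of 0.76, all across regions that share libraries and are not replicates. Replicate 2 scored higher in 684 pairs (69.1%). Over all 990 pairs its score was higher by a median of 0.073, and its regions were a median of 148 bp wider. The median distance between the midpoints of a pair was 72 bp. After the median shift was taken out, the robust SD of the difference was 0.15, about the median counting error of a difference, 0.15. With the shift left in, the largest difference in score among main-set regions was at 22448052 to 22450536, which scored 1.13 ± 0.12 in replicate 1 and 1.71 ± 0.080 in replicate 2 (score ± counting error). The next, at 7339980 to 7342788, scored 0.69 ± 0.11 in replicate 1 and 1.24 ± 0.091 in replicate 2. The region at 17693020 to 17695126 followed, with the opposite direction, at 0.91 ± 0.13 in replicate 1 and 0.36 ± 0.12 in replicate 2. With the shift taken out, its difference, 0.62, was the largest of the 990 pairs, and 5 pairs differed by more than 3 counting errors.

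**Figure D1:**
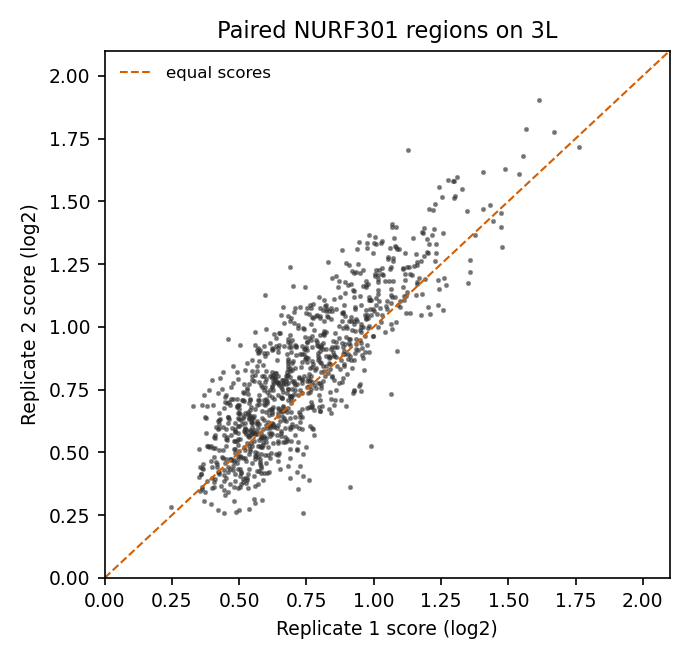
Replicate 2 score against replicate 1 score (both log2) for the 990 best-matching region pairs on 3L, 1 point per pair, with a dashed line at equal scores. Points rise together along the line (Spearman's rho 0.82), and 684 of them lie above it.

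The 44 replicate 1 regions and 208 replicate 2 regions on 3L with no counterpart were weak and narrow. Their median scores were 0.52 in replicate 1 and 0.46 in replicate 2, against 0.69 and 0.78 for shared regions, and their median widths were 1569 and 1785 bp, against 2199 and 2375 bp. Overlap and score come from the same lists, so this direction is not independent of how the lists were made. Of these, 43 of the 44 and 205 of the 208 overlapped a combined-list region. An exception in score was the replicate 2 region at 19819284 to 19820710, which had the highest score of that list on 3L, 2.21, overlapped no combined-list region, and in lowest terms was a ratio of 5 ChIP counts to 1 input count. The second, at 23663567 to 23665400, scored 1.45 in replicate 2 and 1.20 in the combined list, and its replicate 2 ratio was 50 to 17 in lowest terms.

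Of the 1540 combined-list regions on 3L, 985 (64.0%, Wilson interval 61.5% to 66.3%) formed the main set, where the share over all sequences was 61.6%. A further 39 overlapped replicate 1 without replicate 2, 201 overlapped replicate 2 without replicate 1, and 315 (20.5%) overlapped neither. The last group had a median score of 0.34 and a median width of 1273 bp, and 170 of its members were below 1301 bp, the smallest width in either replicate list. Its 3 highest scores, 2.56 at 23822370 to 23824108, 2.28 at 13525028 to 13526028 and 1.86 at 5996526 to 5997526, exceeded every main-set score of the arm. In lowest terms their ratios were 13 to 2, 16 to 3 and 4 to 1 counts. At the edge of the 1-bp rule, the main-set member with the least overlap, at 691848 to 693988, shared 1313 bp with its replicate region, and the nearest regions outside, at 4691934 to 4693526 and at 20180698 to 20182358, each missed by 34 bp.

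Along the arm NURF301 regions were found in every 500-kb window but at very uneven density. Across the 49 full windows the main set held 3 to 40 regions per window, with a median of 20, which is 6 to 80 regions per Mb with a median of 40. The 10 densest windows held 311 main-set regions (31.6%) and the 10 sparsest 96 (9.75%), where 10 windows make up 20.4% of the arm. Replicate 1 had 3 to 41 regions per window and replicate 2 had 3 to 45. Both replicates showed the same profile, with a Spearman's rho of 0.93 and a Pearson's r of 0.95 between their window counts over 49 windows, and 7 of the 10 densest windows were the same in both. Replicate 2 had more regions in 34 windows and replicate 1 in 5. Replicate 2 minus replicate 1 was between -2 and 12 regions in a window, with a median of 3, a smaller spread than the one between windows.

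**Figure D2:**
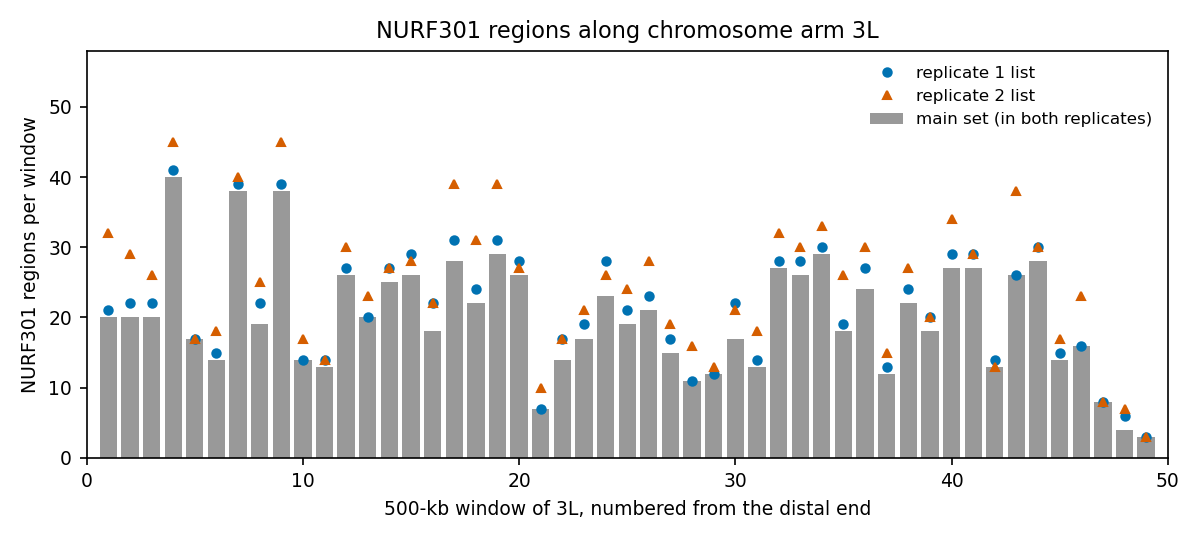
NURF301 regions per 500-kb window of 3L, numbered from the distal end (1) to the proximal end (49). Bars show the main set and points show each replicate list. Replicate 1 is tallest at window 4, replicate 2 is tallest at windows 4 and 9, and both are lowest at 49.

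The densest binding lay in the distal part of the arm. Window 4, from 1500001 to 2000000, held 40 main-set regions, with 41 in replicate 1 and 45 in replicate 2. Window 7, from 3000001 to 3500000, held 38, with 39 in replicate 1 and 40 in replicate 2, and had the highest coverage, 24.3%. Window 9, from 4000001 to 4500000, also held 38, with 39 in replicate 1 and 45 in replicate 2. Next came window 19, from 9000001 to 9500000, with 29 main-set regions, 31 in replicate 1 and 39 in replicate 2, and window 34, from 16500001 to 17000000, with 29 main-set regions, 30 in replicate 1 and 33 in replicate 2. The first 3 windows were thus set off from window 19 in the main set and replicate 1, but in replicate 2 window 19 was within 1 region of window 7. Dense windows did not have higher scores. Window 34 had 0 strong regions by the definition given below, window 9 had a median score of 0.64, below the 0.70 of the arm, and window counts and median scores had a rho of -0.00066 and an r of 0.036.

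The sparsest windows were the last ones and a trough near the middle. Window 49, from 24000001 to 24500000, held 3 main-set regions, with 3 in each replicate. Window 48 held 4, with 6 in replicate 1 and 7 in replicate 2, and window 47 held 8, with 8 in each replicate. Between these and the distal maximum, window 21, from 10000001 to 10500000, held 7, with 7 in replicate 1 and 10 in replicate 2. Window 28, from 13500001 to 14000000, held 11, with 11 in replicate 1 and 16 in replicate 2, yet it contained a strong and wide region. In all, 4 windows had fewer than 50% of the median count, windows 21, 47, 48 and 49.

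Agreement between replicates was high in most windows. The share of replicate 1 regions found in replicate 2 was between 66.7% and 100% over the windows, with a median of 96.6%, and it was 100% in 21 of the 49 windows. The lowest value was in window 48, where 4 of 6 regions of replicate 1 and 4 of 7 of replicate 2 were shared. The share of replicate 2 regions found in replicate 1 had a median of 82.2%. In window 43, from 21000001 to 21500000, replicate 2 had 38 regions and replicate 1 had 26, the largest difference of any window, and 26 of the 38 (68.4%) were shared.

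Window medians of the score stayed within a narrow band. They ranged from 0.51 in window 31 to 0.89 in window 1 in the main set, with a median of 0.72. In the replicate lists the ranges were 0.55 to 0.84 in replicate 1 and 0.51 to 0.92 in replicate 2, and the window medians of both correlated with a rho of 0.59 and an r of 0.62 over 49 windows. Replicates thus ranked windows less alike by score than by count. The score of a region was nearly unrelated to that of its neighbour, with a rho of 0.0071 and an r of 0.012 over 984 neighbouring main-set regions.

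Strong regions were defined by a score of 1.11 or more, the 90th percentile of the main set over all sequences, which is 2.16 times the input after scaling. On 3L, 87 of 985 main-set regions (8.83%, Wilson interval 7.22% to 10.8%) reached it, where the share over all sequences was 10.0% by construction. They were spread along the arm, making up 47 of 545 main-set regions in the distal and 40 of 440 in the proximal 50% of its length. There were 11 windows without any and no more than 6 in a window. That window, 40, from 19500001 to 20000000, contained 5 strong regions within 19807866 to 19923346 and another at 19590490 to 19593464. Strong regions were a median of 3085 bp wide, against 2502 bp for the rest of the main set.

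**Figure D3:**
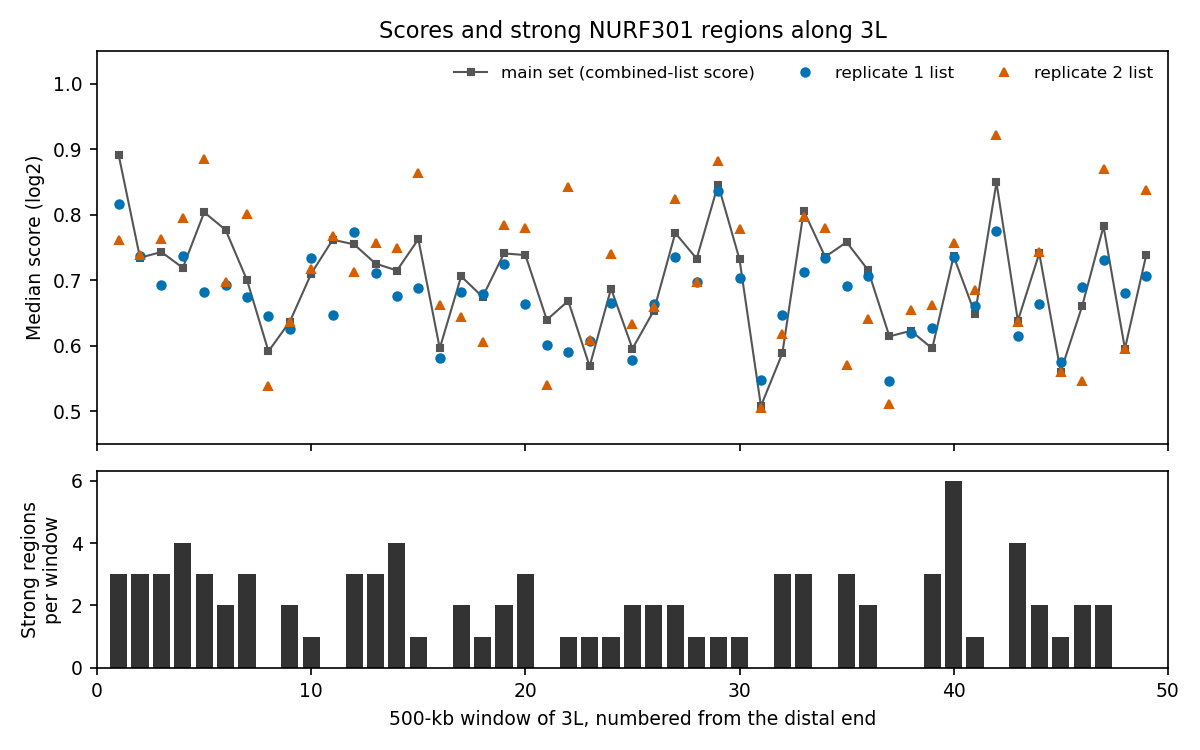
Median score (log2) per 500-kb window of 3L from the distal end, with lines and squares for the main set and points for each replicate list (top), and the number of strong main-set regions, with a score of 1.11 or more, per window (bottom). Window medians in the main set stay between 0.51 and 0.89, and the most strong regions, 6, are in window 40.

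Several of the highest scores of the arm lay near its distal end. The strongest site of all, at 245274 to 249280, scored 1.73 ± 0.050 in the combined list, 1.61 ± 0.078 in replicate 1 and 1.90 ± 0.068 in replicate 2 (score ± counting error here and in the next sentences). The second, 43.8 kb closer to the telomere at 198032 to 201458, scored 1.70 ± 0.063, 1.76 ± 0.089 in replicate 1, where it ranked first on the arm, and 1.71 ± 0.083 in replicate 2. The order of these sites therefore differed between the replicates. Another, at 290578 to 293592, ranked 6 on the arm with 1.54 ± 0.065, 1.49 ± 0.096 in replicate 1 and 1.63 ± 0.089 in replicate 2. Just beyond the first 500 kb, the site at 504434 to 507518 ranked 4 with 1.58 ± 0.057, and the one at 1033352 to 1036228 ranked 7 with 1.498 ± 0.062. Thus 5 of the 20 highest-scoring regions lay in the first 2 Mb, 4 of them in the first 1 Mb. These stretches held 100 and 40 of the 985 main-set regions. The distal 50% of the arm's length held 9 of the 20 and 545 of the 985. The 20 were thus not shifted toward the distal side as a whole. The first 2.5 Mb, 10.2% of the arm, held 16 of the 87 strong regions (18.4%) and 117 of the 985 main-set regions (11.9%).

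The first 500 kb as a whole held 20 main-set regions, close to the median window, but with high scores. Their median score was 0.89, against 0.70 in the rest of the arm, and their median width was 3283 bp, against 2551 bp. The replicates gave median scores of 0.82 and 0.76, against 0.68 and 0.71, so the difference was smaller in replicate 2. Median widths differed less in the replicates than in the main set, at 2534 against 2174 bp in replicate 1 and 2381.5 against 2246 bp in replicate 2. Replicate 2 had 32 regions there, of which 11 had no counterpart, and replicate 1 had 21, with 0 unmatched. Strong regions in these 500 kb numbered 3, with or without either replicate required, and at the same score of 1.11 the replicate lists held 4 in replicate 1 and 6 in replicate 2. The first main-set region started at 173508, and the stretch before it contained 0 regions of replicate 1, 5 of replicate 2 and 6 of the combined list, with combined-list scores of at most 0.47. Regions then crowded between 200 and 400 kb from the end, with 16 main-set regions there, 17 in replicate 1 and 19 in replicate 2.

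The other leading sites were spread over the rest of the arm. The site at 6734168 to 6738102 ranked 3 with 1.67 ± 0.059, 1.57 ± 0.081 in replicate 1 and 1.79 ± 0.077 in replicate 2. The site at 16104162 to 16108070 ranked 5 with 1.55 ± 0.058, 1.54 ± 0.089 in replicate 1 and 1.61 ± 0.078 in replicate 2. The site at 22886566 to 22890264, in the last 2 Mb of the arm, ranked 8 with 1.49 ± 0.054. It ranked 2 in replicate 1, with 1.67 ± 0.10, and 4 in replicate 2, with 1.78 ± 0.093. Its replicate 2 region was narrower, 2654 bp against 3699 bp in the combined list. Its window, 46, held 16 main-set regions, against a median of 20 per full window. The other members of the 20 began at 13494696, 13993796, 14781954, 8441124, 3217664, 21277638, 21041622, 9890186, 22448052, 21507776, 19054618 and 19590490 in falling order, with scores from 1.45 to 1.38. The 20 were picked by the score of the combined list of the same replicate set, so high ranks in each replicate are no independent check. Each of the 20 was a single region in both replicates, and 17 scored higher in replicate 2, where the share over the 990 pairs was 69.1%. Among the top 50 of 3L were 19 in replicate 1 and 20 in replicate 2. The exception, at 22448052 to 22450536, scored 1.13 ± 0.12 in replicate 1, rank 71, and 1.71 ± 0.080 in replicate 2, rank 6.

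**Figure D4:**
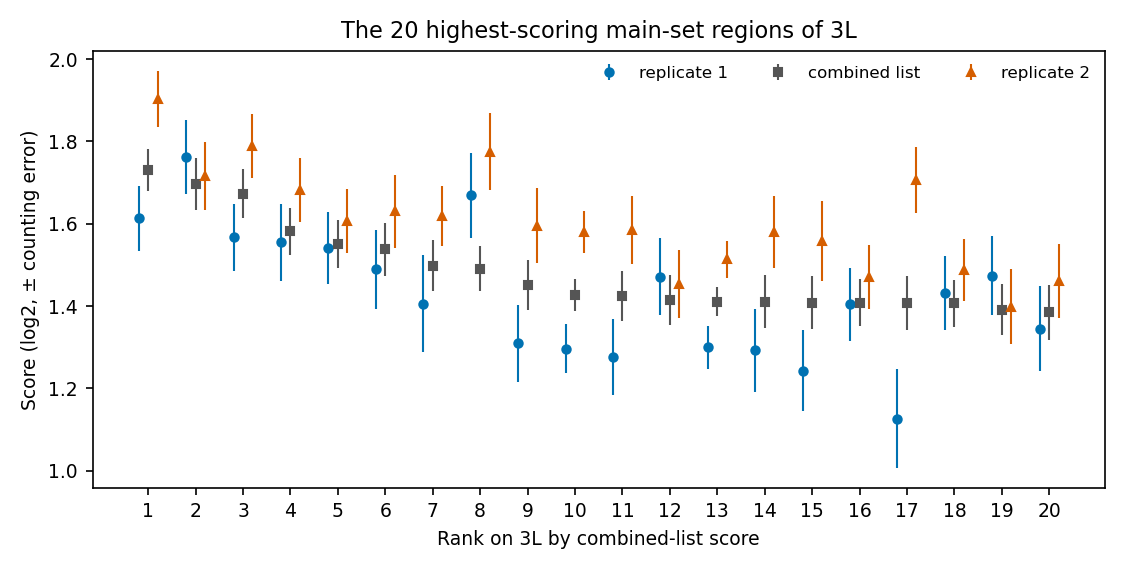
Scores (log2) of the 20 highest-scoring main-set regions of 3L by rank, in replicate 1, the combined list and replicate 2, with bars of plus and minus the counting error. Combined-list scores fall from 1.73 to 1.38, and replicate 2 lies above replicate 1 in 17 of the 20.

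Of the 10 widest regions, 3 were strong, against 8.83% of the main set, and 2 were among the 20 with the highest scores. The widest region of 3L, at 3217664 to 3227554 in window 7, was 9891 bp wide and scored 1.41 ± 0.034, and it was nearly as wide in replicate 1 (9665 bp, score 1.30 ± 0.052) and replicate 2 (9907 bp, score 1.51 ± 0.046). The region at 13993796 to 14000964 was 7169 bp wide and scored 1.43 ± 0.039, 1.30 ± 0.060 in replicate 1 and 1.58 ± 0.052 in replicate 2. These domains were wide and strong in both replicates. A domain of 8211 bp at 11110768 to 11118978 scored 1.11 ± 0.041 and was split into 2 regions in replicate 1. The others were at 14747516 to 14756404 (8889 bp), 19992484 to 20001034 (8551 bp), 9684492 to 9692560 (8069 bp), 2583560 to 2591448 (7889 bp), 16399536 to 16407132 (7597 bp), 637970 to 645260 (7291 bp) and 21528452 to 21535596 (7145 bp), with scores between 0.42 and 1.00. Of the 10, 5 were a single region in both replicates, and over the whole main set 35 regions (3.55%) were split in replicate 1 and 18 (1.83%) in replicate 2.

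NURF301 sites were unevenly spaced. The median distance between neighbouring main-set regions, edge to edge, was 9.39 kb, against a mean of 21.8 kb. Of 984 distances, 322 (32.7%) were 5 kb or less and 120 (12.2%) exceeded 50 kb. Having a close neighbour went with little difference in strength. The 542 regions with a neighbour within 5 kb had a median score of 0.70, the 370 with the nearest at over 5 to 25 kb 0.70, and the 73 with none within 25 kb 0.64, and the highest overlapping scores in the replicates had medians of 0.69, 0.69 and 0.69 in replicate 1 and 0.79, 0.79 and 0.75 in replicate 2.

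Tight clusters were few. Runs of at least 6 main-set regions with no more than 5 kb between neighbours occurred 2 times, and 4 times when replicate 1 was not required. The larger, at 9418356 to 9456414 in window 19, had 8 regions in 38.1 kb, covered 64.3% of that stretch and had 8 regions in each replicate. Its members scored between 0.52 and 1.14, with the strongest at 9421620 to 9424802, which scored 1.17 in replicate 1 and 1.20 in replicate 2. Lower and higher scores lay side by side in it, such as 0.54 at 9427484 to 9429604 and 1.099 at 9438714 to 9441518. The smaller cluster, at 7315354 to 7342788, had 6 regions in 27.4 kb and 6 in each replicate. It was more even, with scores from 0.76 to 1.04. With distances of up to 10 kb allowed there were 18 clusters, and the largest, at 3033978 to 3098282 and at 7315354 to 7376066, had 10 regions each.

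Long gaps were common in the main set and each replicate. Stretches of 100 kb or more without a main-set region, arm ends included, numbered 39 and summed to 6.18 Mb, or 25.2% of 3L. Replicate 1 alone gave 36 such gaps (23.7% of 3L) and replicate 2 gave 31 (18.6%). In the whole combined list there were 16, summing to 2.23 Mb or 9.10% of 3L, the longest being 235.3 kb. Of the 39, 18 contained no region of either replicate and 5 no region of the combined list. The longest, 387.9 kb from 24068343 to 24456291, contained 0 regions of either replicate and 1 of the combined list, with a score of 0.33. The second, 371.5 kb from 23333879 to 23705369, contained 3 regions of replicate 2. Away from the proximal end, the gaps at 18161377 to 18452405 (291.0 kb), 11247641 to 11503501 (255.9 kb) and 6258931 to 6477447 (218.5 kb) contained 0 regions of replicate 1 and 3, 0 and 0 of replicate 2.

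NURF301 binding thinned toward the proximal end of 3L, and the replicates disagreed on whether the remaining sites scored lower. The last 2 Mb held 32 main-set regions, 16.0 per Mb against 42.3 in the rest of the arm, a ratio of 0.378. The ratio was 0.373 in replicate 1, with 34 regions, and 0.408 in replicate 2, with 42. In the last 1 Mb it was 0.193 in the main set, 0.224 in replicate 1 and 0.217 in replicate 2. Both replicates thus showed the depletion, and they differed from each other by far less than from the rest of the arm. Mappability of this sequence to short reads was not measured here. Median scores were 0.73 in the last 2 Mb and 0.70 in the rest of the arm in the main set, 0.70 and 0.68 in replicate 1, and 0.59 and 0.71 in replicate 2, which disagree on direction. Of the 32 regions, 4 were strong, where the share was 8.83% over 3L and 10.0% over all sequences. In the last 1 Mb, 0 of the 8 main-set regions were strong, with a median score of 0.68 against 0.70 in the rest. At the same score, replicate 1 held 1 region there and replicate 2 held 2.

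**Figure D5:**
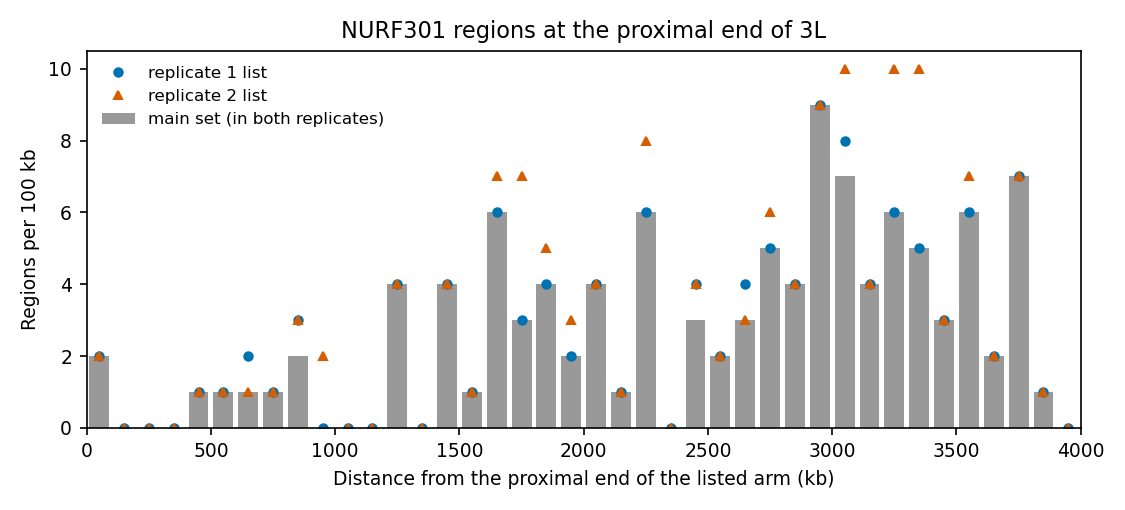
Regions per 100 kb against the distance in kb from the proximal end of listed 3L sequence, with bars for the main set and points for each replicate list. Counts stay at or below 4 in the main set within the last 1.5 Mb and reach 9 farther from the end.

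Binding did not fade out smoothly. Going toward the centromere, a group of 4 regions between 22855752 and 22890264 included the strong site of rank 8 and another at 22863038 to 22866732 with a score of 1.25. Then came the strong regions at 23091620 to 23094360, with 1.32 ± 0.070, 1.30 ± 0.11 in replicate 1 and 1.52 ± 0.10 in replicate 2, and at 23329736 to 23333878, with 1.25 ± 0.051, 1.23 ± 0.079 in replicate 1 and 1.33 ± 0.069 in replicate 2. The region at 23329736 borders the second-longest gap. In the last 500 kb there were 3 main-set regions, at 24066094 to 24068342 with a score of 0.48, at 24456292 to 24459042 with 0.74 and at 24527144 to 24532000 with 0.86. The last of them ended 11557 bp from the end of the listed arm and scored 0.82 ± 0.083 in replicate 1 and 1.06 ± 0.075 in replicate 2. The separate heterochromatic sequence 3LHet continued at low density, with 7.43 regions per Mb in replicate 1 and 9.39 in replicate 2.

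Set beside the autosome arms 2L and 3R, 3L was similar in density, width and score. Per Mb it had 46.1 ± 4.06 regions, against 45.9 ± 3.78 on 2L and 50.2 ± 4.66 on 3R (mean ± SD, n = 2). Median widths averaged 2215 ± 48.1 bp on 3L, 2186 ± 66.5 bp on 2L and 2221 ± 64.7 bp on 3R, and median scores 0.70 ± 0.021, 0.67 ± 0.024 and 0.69 ± 0.016 (SD, n = 2). Within each replicate, 3L minus 3R was -3.60 regions per Mb in replicate 1 and -4.45 in replicate 2, and 3L minus 2L was 0.074 and 0.47. For the median score, 3L minus 2L was 0.025 in replicate 1 and 0.020 in replicate 2, and 3L minus 3R was 0.0044 and 0.012. Both replicates thus had a lower density on 3L than on 3R and a slightly higher median score than on 2L, while the width difference from 3R had no common sign, at 6 and -17.5 bp. The proximal ends differed more. The density of the last 2 Mb at the centromere side over the rest was 0.373 in replicate 1 and 0.408 in replicate 2 on 3L, 0.533 and 0.554 on 2L, and 1.08 and 1.09 on 3R. At the telomere side, the first 500 kb had a main-set median score of 0.89 on 3L, 0.70 on 2L and 0.74 on 3R. The medians there were 0.82, 0.68 and 0.64 in replicate 1, and 0.76, 0.70 and 0.71 in replicate 2. These arms had 3 strong main-set regions each there, of 20 on 3L, 32 on 2L and 24 on 3R. With 2 lists these arm differences were not tested.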

How the data were processed

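The 4 samples were 2 ChIP libraries and 2 inputs, and the analysis used the 3 deposited lists of enriched regions (replicate 1, replicate 2, combined). Per the submitters' processing notes, Bowtie 0.12.7 was among the tools. Neither the region caller and its threshold nor the rule for joining replicates is given in the sources used here. The deposited log2 scores are the authors' own values per region. Divided by a constant for each list (0.885, 0.927 and 0.908), 2 to the power of the score gave a ratio of whole numbers for 100% of regions, at a relative tolerance of 2e-10 and a denominator of at most 3000. A wrong constant gave at most 0.359%. These ratios are in lowest terms, so counts were set to the multiple nearest each list's typical input density per kb. The multiple is an estimate, exact for 95.1% of 1495 simulated regions at combined-list density. That simulation used a uniform input density, which the choice of multiple also assumes, and the lower densities of the replicate lists were not simulated. Numerators were taken as ChIP, which the files do not state. The counting error is the square root of the summed inverse counts, on the log2 scale.

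Regions were assigned to windows by midpoint. For a main-set region that met several replicate regions, the highest replicate score was used. Intervals at 95% are Wilson intervals. Python 3.11.15, numpy 2.4.6 and scipy 1.17.1 were used. Named regions were the 20 highest-scoring and 10 widest of the main set on 3L, strong regions of the first 500 kb, all of the last 500 kb, the 5 densest and 5 sparsest windows, clusters and the 5 longest gaps. Others were chosen after their values were seen. The members, lists and rules were chosen with earlier results of these data known. No p-value was computed, since 2 ChIP lists of 1 group allow no test between groups. Alternatives covered overlap, list, score threshold, window size, linkage and gap length. No annotation of release 5 was used, so genes and sequences at the regions were not analysed here.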

Additional observations from a re-analysis of the deposited data

How the results depend on the processing

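Across 12 results and 85 alternative values, 46 stayed within the replicate SD, the Wilson interval or, for counts, 1.5 times the reported value, and the cause of the others was not tested beyond what each alternative leaves out by construction. The whole combined list gave 1540 regions, 15.3% coverage, a median score of 0.52 and width of 2230 bp, a densest window of 106 per Mb, 17 clusters and 16 gaps. The replicate 1 list gave 10.1% coverage and a median width of 2181 bp. The replicate 2 list gave a median width of 2249 bp, a densest window of 90 per Mb, 6 strong regions in the first 500 kb, a proximal ratio of 0.408 and 6 clusters. The stricter score threshold gave 9.00% coverage, a median score of 0.80 and width of 2696 bp, 66 per Mb, 1 cluster, shared shares of 90.9% in replicate 1 and 79.7% in replicate 2 and a rho of 0.78. Requiring overlap with only 1 replicate list kept combined-list regions and scores, so neither library was left out of them. This gave 1024 to 1186 regions, 11.9% to 13.2% coverage, median scores of 0.62 to 0.69, widths of 2425 to 2528 bp, 80 to 92 per Mb, 3 strong regions in the first 500 kb, proximal ratios of 0.387 to 0.404, 2 to 4 clusters and 31 to 37 gaps. With the strong threshold recomputed on each list as its own 90th percentile, a choice made after seeing the data, the first 500 kb had 6 strong regions in the combined list, 5 in replicate 2 and 4 to 5 when overlap with only 1 replicate was required. Windows of 200 and 1000 kb gave 105 and 60 per Mb. The last 1 Mb gave a ratio of 0.193, linkage of 3 and 10 kb gave 0 and 18 clusters, and a 50 kb minimum gave 121 gaps. Reciprocal overlap of 50% lowered the replicate 1 share to 91.3%. Pearson's r was 0.85.

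No paired analysis was possible because the inputs have no list of regions and the 2 ChIP lists belong to 1 group. Counting errors near 0.1 in the replicates limit what can be said of single regions.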
